A study of Mus musculus with 24 samples.

Results

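The genes described here are 9 regulators of retinal neurogenesis. They are the basic helix-loop-helix (bHLH) activators Atoh7, Neurog2, Neurod1 and Neurod4, the Hes family members Hes5 and Hes6, the Notch ligands Dll1 and Dll4, and the receptor Notch1. They were taken by symbol from a table of 33846 mouse genes, in which each had 1 entry. All 9 passed the filter on low counts, which left 16792 genes to test. Their levels were followed in bulk polyadenylated RNA of retinal organoids, small tissues that self-organise from mouse embryonic stem cells (ESCs) and form retinal layers. The 24 libraries came from 3 ways of growing the organoids. Organoids in the RWB groups were turned in a rotating-wall bioreactor and sampled at differentiation day 18 (D18, 2 libraries), D22 (3 libraries) and D25 (3 libraries). SSCd stands for static suspension of dissected tissue, with 3 libraries each at D18, D22 and D28. SSCi stands for static suspension of intact organoids, with 2 libraries at D18, 2 at D25 and 3 at D32. In SSCd and RWB the optic cups had been cut out at D10. The base medium of all 9 groups held N2 supplement, taurine, 9-cis retinal and insulin-like growth factor. A later medium with serum, B27 without vitamin A and non-essential amino acids began at D18 for RWB and SSCd and at D26 for SSCi. Comparisons with D18 in RWB and SSCd, and those with D32 in SSCi, thus change day and medium at once, and the 2 cannot be told apart. Both ESC lines were wild type, 1 derived from Nrl-GFP reporter mice and the other R1, and the labels do not say which line gave which library. How many organoids went into a library is not given in the sources used here.

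In the developing retina, dividing progenitors carry the Notch1 receptor and meet Delta-like ligands on neighbouring cells that have begun to differentiate. Ligand binding frees the intracellular part of Notch1, which joins the DNA-binding protein RBPJ and switches on Hes genes. Their products, such as Hes5, repress the proneural bHLH factors and so hold cells in the progenitor state. Cells that escape this signal raise proneural factors, which turn on Delta-like ligands and later bHLH factors of the Neurod family. Hes6 stands apart in its family, because it opposes Hes1 and favours differentiation.

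Depth lay between 13284632 and 21604446 estimated counts a library. In 4 libraries, replicate 1 of SSCd D18, SSCd D22, RWB D22 and RWB D25, the mitochondrial genome gave 8.26% to 13.1% of them, and in the others at most 5.76%. Replicate 1 of SSCi D18 stood apart by its mesenchyme markers, which summed to 7296 on the counts-per-million (CPM) scale against 29.3 CPM in replicate 2. Retinal markers were present throughout, with Pax6 between 347 and 758 CPM and Crx between 265 and 1839 CPM. Summed markers of mitotic progenitors, 10 genes that include Mki67 and Top2a, went from between 3942 and 4143 CPM in RWB D18 to between 331 and 507 CPM in RWB D25, from between 2953 and 4735 CPM in SSCd D18 to between 368 and 462 CPM in SSCd D28, and from between 3806 and 4921 CPM in SSCi D18 to between 403 and 491 CPM in SSCi D32. Of the 10, 10 fell in RWB, 10 in SSCd and 9 in SSCi, against 14%, 17.1% and 20.5% of all genes tested. The part that this shift in cell types plays in the levels below was not tested, and in bulk RNA fewer cells of a type and less RNA per cell cannot be told apart.

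Atoh7, the factor that makes progenitors competent to become ganglion cells, had the steepest fall of the 9 genes. It lies at chr10:63099651-63101279 on the plus strand (GRCm38, GENCODE M21) and has a single exon. At D18 it measured 446 and 494 CPM in RWB, 255, 370 and 253 CPM in SSCd, and 228 and 459 CPM in SSCi. The D22 libraries held 25.9, 55.6 and 22.4 CPM in RWB and 12.5, 12.4 and 6.30 CPM in SSCd, and the SSCi D25 libraries held 5.56 and 5.00 CPM. At the last day of each culture it stood at 1.59, 3.68 and 1.18 CPM in RWB D25, at 0.970, 0.777 and 0.342 CPM in SSCd D28, and at 1.2, 0.629 and 0.364 CPM in SSCi D32. No library of a later day reached the level of any D18 library, and the last values rest on 5 to 59 counts per library. Of 10 ganglion cell markers, such as Pou4f2 and Nefl, 9 fell in RWB, 8 in SSCd and 7 in SSCi over the same spans. Of all genes tested, 14%, 17.1% and 20.5% fell. The part of these markers in the Atoh7 result was not tested. Against D18 the log2 fold change was -7.77 ± 0.54 (SE) at RWB D25, -8.67 ± 0.57 at SSCd D28 and -8.84 ± 0.59 at SSCi D32, with edgeR adjusted p of 2.2e-08, 3.6e-09 and 5.7e-09. A difference is referred to as called where the adjusted p of edgeR's quasi-likelihood test, taken over all 16792 genes, was under 0.05, and only such differences are said to have risen or fallen.

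Neurog2, a proneural factor of dividing retinal progenitors, fell in both intervals of every culture, from D18 to the middle day sampled and from there to the last day. It lies at chr3:127633135-127635631 on the plus strand. RWB libraries held 138 and 102 CPM at D18, 70.2, 63.6 and 67.5 CPM at D22, and 31.9, 26.4 and 20.5 CPM at D25. SSCd libraries held 163, 168 and 189 CPM at D18, 67.3, 86.4 and 67.9 CPM at D22, and 18.1, 27.3 and 16.8 CPM at D28. SSCi libraries held 159 and 231 CPM at D18, 81.8 and 85.2 CPM at D25, and 13.8, 16.0 and 16.9 CPM at D32. Within each culture the libraries of successive days did not overlap. The spread between replicates was the smallest of the 9 genes, with standard errors between 0.20 and 0.33 in all 16 comparisons. From the first to the last day the log2 fold change was -2.20 ± 0.22 in RWB, -3.06 ± 0.21 in SSCd and -3.65 ± 0.23 in SSCi (edgeR adjusted p = 6.1e-07, 5.9e-09 and 4.2e-09), and group means fell by 4.57-fold, 8.37-fold and 12.5-fold.

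Neurod1 and Neurod4 did not share this fall from the first to the last day. Neurod1 takes part in photoreceptor and amacrine differentiation, and Neurod4 in amacrine and bipolar differentiation. Neurod1 lies at chr2:79452521-79456751 on the minus strand and Neurod4 at chr10:130268152-130280240 on the minus strand. For Neurod1 the SSCi libraries held 200 and 265 CPM at D18, 652 and 649 CPM at D25, and 693, 578 and 634 CPM at D32. Every later SSCi library was thus above both D18 libraries, and the gene rose by D25 with a log2 fold change of 1.48 ± 0.28 (edgeR adjusted p = 0.0011). The SSCd libraries held 363, 326 and 346 CPM at D18, 739, 628 and 431 CPM at D22, and 651, 515 and 301 CPM at D28. The rise to D22, 0.80 ± 0.23 on the log2 scale, was called (edgeR adjusted p = 0.025), but the call was lost when any 1 of the 3 SSCd D18 libraries, SSCd D22 replicate 1 or SSCd D22 replicate 2 was left out (adjusted p from 0.058 to 0.15), without the 4 libraries richest in mitochondrial counts (0.65, adjusted p = 0.17) and in a fit to both groups alone (adjusted p = 0.068). In RWB it stayed between 290 and 469 CPM in all 8 libraries, and the change from D18 to D25 was 0.15 ± 0.25 (edgeR adjusted p = 0.70). Of 10 markers of photoreceptor precursors, 5 rose in each culture over its whole span, and 1, 4 and 2 fell in RWB, SSCd and SSCi. Of all genes tested, 28.9%, 34.6% and 36.7% were called over these spans, and 14%, 17.1% and 20.5% were called lower. The part of these markers in the Neurod1 levels was not tested.

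For Neurod4 the highest group mean was at the middle day of each culture. RWB libraries held 566 and 524 CPM at D18, 892, 1138 and 546 CPM at D22, and 559, 595 and 337 CPM at D25. SSCd libraries held 640, 437 and 386 CPM at D18, 601, 911 and 558 CPM at D22, and 354, 364 and 244 CPM at D28. SSCi libraries held 267 and 296 CPM at D18, 622 and 417 CPM at D25, and 331, 311 and 375 CPM at D32. The RWB groups overlapped, whereas all SSCd D28 libraries lay below all SSCd D22 libraries and the drop between these days was called, at -1.11 ± 0.28 on the log2 scale (edgeR adjusted p = 0.018). That call was lost without SSCd D22 replicate 2 (-0.84, adjusted p = 0.14) or SSCd D28 replicate 3 (-0.94, adjusted p = 0.092), and in a fit to both groups alone (-1.09, adjusted p = 0.052). None of the rises from D18 was called, the largest being 0.89 ± 0.34 in SSCi by D25 (edgeR adjusted p = 0.078), a value that DESeq2 (adjusted p = 0.048) and edgeR with a replicate block (adjusted p = 0.027) did call. Of 10 bipolar cell markers, 7, 7 and 8 rose over the whole spans of RWB, SSCd and SSCi. Of all genes tested, 28.9%, 34.6% and 36.7% were called over these spans in either direction. Of these shares, 14%, 17.1% and 20.5% were called lower, and in SSCi 16.2% were called higher. The part of these markers in the Neurod4 levels was not tested.

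**Figure D1:**
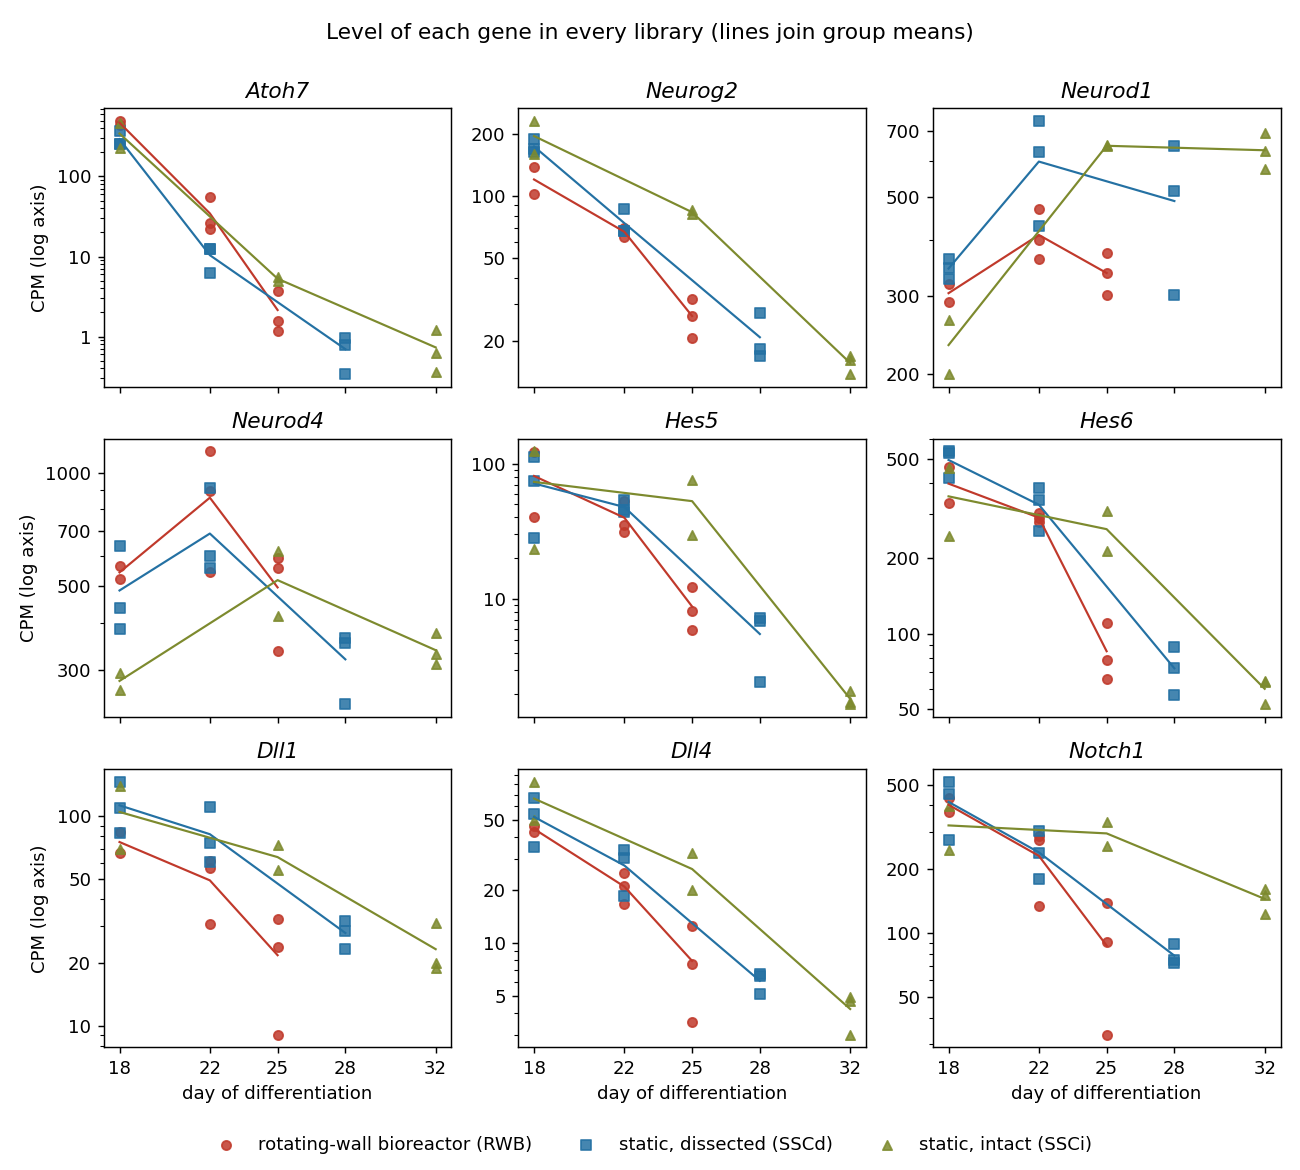
CPM of each of the 9 genes (log axis, a scale of its own per panel) against the day of differentiation, with 1 point per library, colour and shape for the culture method and lines through group means. Atoh7 drops from between 228 and 494 CPM at D18 to under 4 CPM at the last day of each culture, whereas Neurod1 stays at 200 CPM or more in every library.

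Hes5 and Hes6 were called lower over the second interval of every culture and over the first interval of none, where their log2 fold changes lay between -1.02 and -0.44. Hes5, a direct target of Notch signalling in progenitors, lies at chr4:154960923-154962371 on the plus strand, and Hes6 at chr1:91411483-91414038 on the minus strand. Hes5 was uneven between D18 libraries, at 121 and 40.6 CPM in RWB, 28.4, 73.9 and 112 CPM in SSCd, and 23.6 and 123 CPM in SSCi. At the middle day it held 31.2, 35.5 and 52.8 CPM in RWB, 43.9, 53.6 and 45.7 CPM in SSCd, and 29.8 and 75.8 CPM in SSCi. At the last day it measured 5.95, 8.16 and 12.3 CPM in RWB D25, 7.24, 6.88 and 2.46 CPM in SSCd D28, and 2.09, 1.75 and 1.67 CPM in SSCi D32. D18 and middle-day libraries overlapped in each culture, and last-day libraries lay below all others of the same culture. Its log2 fold change over the second interval was -2.17 ± 0.58 in RWB, -3.10 ± 0.60 in SSCd and -4.84 ± 0.70 in SSCi (edgeR adjusted p = 0.033, 0.0030 and 2.0e-04). The RWB value lost its call without any 1 of 5 of the 6 libraries compared, RWB D22 replicates 2 and 3 and each RWB D25 library (adjusted p from 0.054 to 0.11), without the 4 mitochondria-rich libraries (adjusted p = 0.12) and with no filter on low counts (adjusted p = 0.087).

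Hes6 varied less between replicates. It held 462 and 334 CPM at RWB D18, 304, 289 and 280 CPM at D22, and 66.1, 111 and 78.4 CPM at D25. SSCd libraries held 419, 535 and 529 CPM at D18, 343, 383 and 256 CPM at D22, and 88.8, 72.6 and 56.6 CPM at D28. SSCi libraries held 246 and 461 CPM at D18, 214 and 309 CPM at D25, and 64.4, 52.2 and 63.9 CPM at D32. Over the second interval its log2 fold change was -1.77 ± 0.25 in RWB, -2.17 ± 0.26 in SSCd and -2.12 ± 0.27 in SSCi (edgeR adjusted p = 3.9e-04, 4.2e-05 and 7.6e-05), and these 3 calls held in every refit run. Over all 24 libraries the log2 CPM of Hes5 and Hes6 had a Pearson correlation of 0.949, and after group means were taken out it was 0.754, a description over libraries that share groups and depth.

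As these Hes genes moved together, their promoters are shown, taken from RefSeq on GRCm38.p6 and limited to the 250 bases before the start site, 5′ to 3′ on the gene's strand. Capitals mark, in Hes5, the RBPJ core TGGGAA on either strand and, in Hes6, the E-box CANNTG that bHLH factors bind.
Hes5 (chr4:154960673-154960922, plus strand): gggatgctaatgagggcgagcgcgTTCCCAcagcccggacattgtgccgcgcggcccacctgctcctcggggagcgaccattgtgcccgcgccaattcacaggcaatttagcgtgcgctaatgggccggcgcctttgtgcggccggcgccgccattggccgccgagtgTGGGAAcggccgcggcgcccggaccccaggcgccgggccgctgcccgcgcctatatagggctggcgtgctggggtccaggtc
Hes6 (chr1:91414039-91414288, minus strand): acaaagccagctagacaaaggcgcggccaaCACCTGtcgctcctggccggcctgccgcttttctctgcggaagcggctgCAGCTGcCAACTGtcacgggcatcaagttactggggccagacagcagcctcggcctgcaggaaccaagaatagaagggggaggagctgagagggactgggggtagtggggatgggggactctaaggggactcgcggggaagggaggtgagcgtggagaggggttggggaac
Hes5 has 2 RBPJ core matches, beginning 226 bases before the start on the minus strand and 82 bases before it on the plus strand. At least 2 such matches occur in 2.77% of 32851 promoter windows of this length, and at least 1 in 21.6%. The Hes6 window has none, and has 3 E-box matches at 220, 171 and 164 bases before the start. At least 3 E-boxes occur in 12.2% of windows. The Hes5 window also has 1 E-box, left in lower case, 194 bases before the start, and at least 1 occurs in 66.2% of windows. The window at another Hes6 start has 1 E-box. Of the 12 windows of the 9 genes, 2 have an RBPJ core match, those of Hes5 and Atoh7. Windows of Atoh7 and Dll1 also have 3 E-boxes. The RefSeq starts of these Atoh7 and Dll1 windows are not the GENCODE starts. That of Atoh7, 63099785, lies inside the gene span given above, so part of its window is within the annotated gene. A match is a string of letters in the window, and no binding was measured.

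Of the ligands, Dll4 fell further than Dll1 from first to last day in all 3 cultures, although this difference between genes was not tested. Dll1 lies at chr17:15367354-15376872 on the minus strand and Dll4 at chr2:119325784-119335962 on the plus strand. Dll4 held 46.5 and 42.6 CPM at RWB D18, 16.8, 21.1 and 25.0 CPM at D22, and 3.57, 12.6 and 7.59 CPM at D25. SSCd libraries held 35.4, 54.3 and 66.9 CPM at D18, 18.5, 33.9 and 30.5 CPM at D22, and 5.13, 6.46 and 6.70 CPM at D28. SSCi libraries held 50.2 and 82.6 CPM at D18, 20.0 and 32.7 CPM at D25, and 4.68, 3.01 and 4.95 CPM at D32. In each culture the libraries of the 3 days formed separate ranges. From first to last day the log2 fold change was -2.49 ± 0.40 in RWB, -3.10 ± 0.38 in SSCd and -3.98 ± 0.42 in SSCi (edgeR adjusted p = 8.3e-05, 3.3e-06 and 4.8e-07).

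Dll1 held 83.7 and 66.7 CPM at RWB D18, 30.5, 56.3 and 61.3 CPM at D22, and 9.04, 32.3 and 23.7 CPM at D25. SSCd libraries held 83.3, 109 and 146 CPM at D18, 74.7, 111 and 60.5 CPM at D22, and 23.1, 28.2 and 31.7 CPM at D28. SSCi libraries held 69.4 and 140 CPM at D18, 55.0 and 72.4 CPM at D25, and 19.8, 18.8 and 30.9 CPM at D32. First- and last-day libraries were apart in each culture, with log2 fold changes of -1.79 ± 0.42 in RWB, -2.02 ± 0.39 in SSCd and -2.18 ± 0.42 in SSCi (edgeR adjusted p = 0.0028, 4.2e-04 and 4.0e-04).

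Notch1, the receptor, lies at chr2:26457903-26516663 on the minus strand and fell from first to last day in each culture. It held 369 and 434 CPM at RWB D18, 134, 274 and 285 CPM at D22, and 33.2, 138 and 90.8 CPM at D25. SSCd libraries held 276, 452 and 515 CPM at D18, 179, 303 and 237 CPM at D22, and 88.5, 72 and 74.6 CPM at D28. SSCi libraries held 246 and 396 CPM at D18, 256 and 333 CPM at D25, and 161, 151 and 123 CPM at D32. The SSCi D25 range lay inside that of SSCi D18, and all SSCi D32 libraries lay below both. From first to last day the log2 fold change was -2.20 ± 0.42 in RWB, -2.40 ± 0.39 in SSCd and -1.15 ± 0.41 in SSCi (edgeR adjusted p = 4.5e-04, 7.8e-05 and 0.034). The SSCi call was lost without SSCi D18 replicate 2 (-0.71, adjusted p = 0.31) or any 1 SSCi D32 library (adjusted p from 0.056 to 0.10), and with no filter on low counts (adjusted p = 0.052). The lowest RWB D25 library for Notch1, Dll1 and Dll4 alike was replicate 1, in which 13.1% of counts were mitochondrial and pigment epithelium markers summed to 1083 CPM against 342 and 60.1 CPM in the other two.

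Counted over the 9 genes, the falls were few in the first interval and many in the second. From D18 to D22 in RWB, 2 of 9 fell and none rose, with a median log2 fold change of -0.80, while 10.9% of all genes tested were called, 4.88% lower, and their median was 0.01. These were Atoh7 and Neurog2, and Neurog2 was lost without RWB D18 replicate 1 (-0.59, edgeR adjusted p = 0.21) or RWB D22 replicate 2 (-0.80, adjusted p = 0.053). In SSCd from D18 to D22, 2 fell (Atoh7 and Neurog2) and 1 rose (Neurod1), against 12.4% of all genes, 5.13% lower and 7.23% higher, and the members' median was -0.59. With the replicate number as a block over all 24 libraries, Dll4 was called as well (-0.92, edgeR adjusted p = 0.029). With gene counts summed from the transcript counts it was called too (-1.11, adjusted p = 0.027). In RWB from D18 to D22 Dll4 measured -1.09 ± 0.39 (edgeR adjusted p = 0.077), and it was called with summed transcript counts (adjusted p = 0.047), DESeq2 (0.044), a fit to both groups alone (0.016) and the replicate block (0.010). In SSCi from D18 to D25, 3 fell (Atoh7, Neurog2 and Dll4) and 1 rose (Neurod1), against 19.8% of all genes, 10.9% lower and 8.89% higher, with a median of -0.47. The Dll4 call there, -1.33 ± 0.43, was lost without SSCi D18 replicate 2 or either SSCi D25 library (edgeR adjusted p from 0.064 to 0.28), and in a fit to both groups alone (adjusted p = 0.11).

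In the second interval none of the 9 genes rose in any culture. In RWB from D22 to D25, 6 fell, against 5.2% of all genes called and 3.23% called lower, and the members' median was -1.40. With the replicate number as a block over all 24 libraries, 8 fell, Dll1 (-1.22, edgeR adjusted p = 0.021) and Neurod4 (-0.78, adjusted p = 0.042) joining. Without RWB D22 replicate 2, RWB D25 replicate 1 or RWB D25 replicate 3, 3 fell (Atoh7, Neurog2 and Hes6), since Hes5, Dll4 and Notch1 lost their calls, as they did without RWB D22 replicate 3 (adjusted p from 0.054 to 0.14 over these libraries). Calls were gained for Neurod4 without RWB D22 replicate 3 (-1.03, adjusted p = 0.049), and for Dll1 without RWB D22 replicate 1 (adjusted p = 0.048), without RWB D25 replicate 2 (adjusted p = 0.042) and with DESeq2 (adjusted p = 0.029). Notch1 was also lost with summed transcript counts (-1.32, adjusted p = 0.080) and with no filter (adjusted p = 0.053), and Notch1 and Dll4 were lost in a fit to both groups alone (adjusted p = 0.26 and 0.18). In SSCd from D22 to D28, 8 fell, all but Neurod1, against 8.05% of all genes, 5.05% lower, with a median of -1.83. Without SSCd D22 replicate 2, 5 fell, as Dll1, Notch1 and Neurod4 were lost, and 1 of these was lost without each SSCd D28 library (Dll1 without replicate 1, Notch1 without replicate 2 and Neurod4 without replicate 3). In SSCi from D25 to D32, 6 fell, against 8.25% of all genes, 4.54% lower, with a median of -2.12. Of these, Dll1 (-1.46 ± 0.42, edgeR adjusted p = 0.035) lost its call without either SSCi D25 library or SSCi D32 replicate 1 or 2 (adjusted p from 0.067 to 0.28). Notch1, at -1.02 ± 0.41, was not among them (edgeR adjusted p = 0.14), but was called with summed transcript counts (-1.49, adjusted p = 0.049), without the 4 mitochondria-rich libraries (-1.05, adjusted p = 0.0048) and in a fit to both groups alone (-1.01, adjusted p = 0.0016). Whether a gene fell more in the second interval than in the first was not tested, and the intervals differ in length between cultures.

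Over the whole span, 7 of 9 genes fell in each culture. In RWB this stood against 28.9% of all genes called and 14% called lower, in SSCd against 34.6% and 17.1%, and in SSCi against 36.7% and 20.5%, with 16.2% called higher. The 7 were the same in the 3 cultures, all but Neurod1 and Neurod4, and the members' medians were -2.20, -2.77 and -2.56 against 0.06, 0.02 and -0.05 for all genes tested. Neurod1 rose in SSCi (1.45 ± 0.27, edgeR adjusted p = 2.5e-04), and measured 0.50 ± 0.23 in SSCd (adjusted p = 0.094), where it was called without SSCd D28 replicate 3 (0.76, adjusted p = 0.0082). Neurod4 measured -0.13 ± 0.31, -0.60 ± 0.28 and 0.27 ± 0.32 in RWB, SSCd and SSCi (edgeR adjusted p = 0.79, 0.10 and 0.54). All 10 mesenchyme markers fell in SSCi over this span, but their D18 sum was high in replicate 1 alone (7296 CPM). Replicate 2 held 29.3 CPM, within the range of SSCi D32, 17.5 to 33.7 CPM. Without the mesenchyme-rich SSCi D18 replicate 1, no member lost its call in SSCi and no value changed sign, and the largest move over the whole span was 0.76 on the log2 scale, for Hes5, which then measured -6.07.

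**Figure D2:**
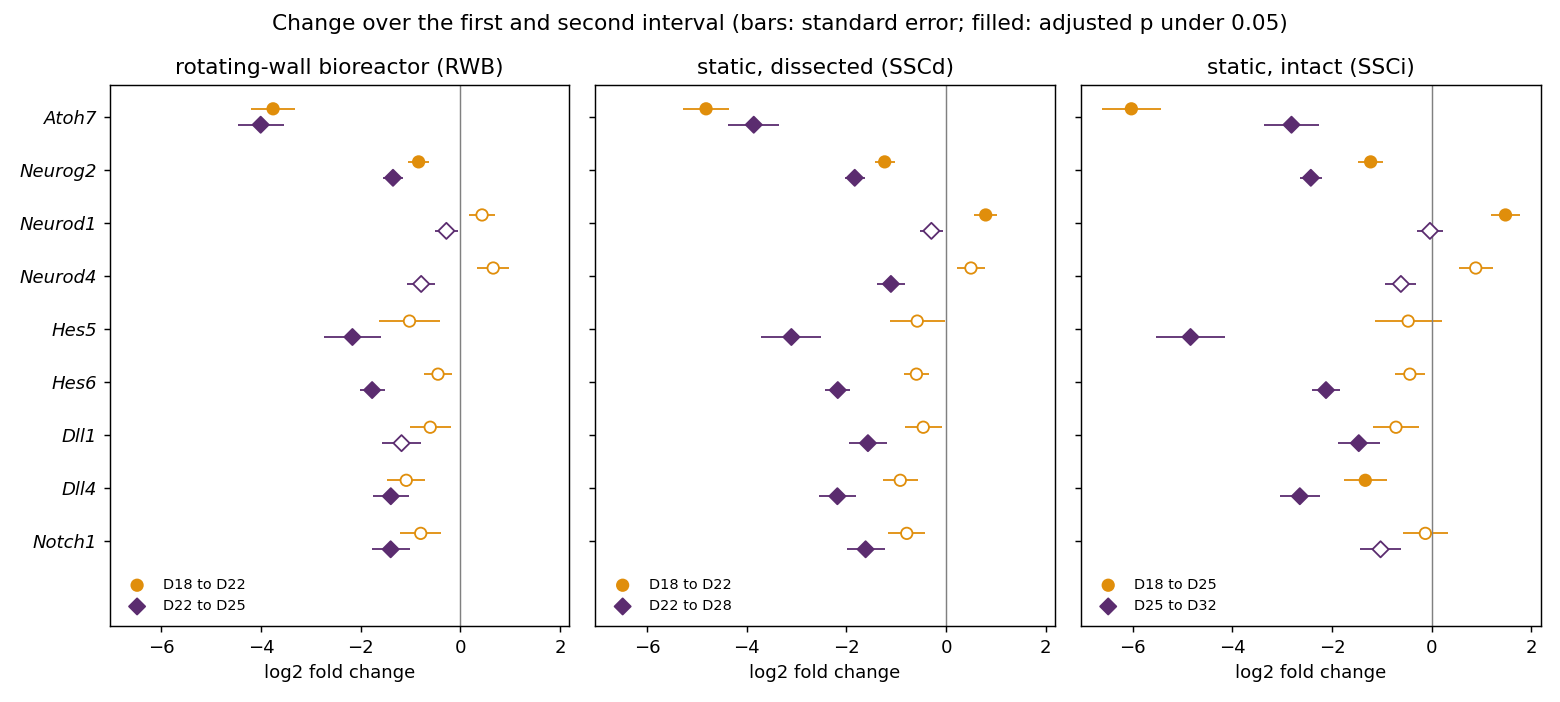
Log2 fold change of each gene over the first and the second interval of each culture, with bars for the standard error and filled symbols for an edgeR adjusted p under 0.05. Atoh7 and Neurog2 are filled in both intervals of all 3 cultures, and Hes5 and Hes6 only in the second.

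Ratios within a library show how the balance between genes moved, in which total counts cancel. They are not corrected for length, so only their change between groups is read, with no test. Neurod1 over Neurog2 went from 2.30 and 2.83 at RWB D18 to between 10.6 and 14.7 at D25, from between 1.83 and 2.22 at SSCd D18 to between 17.9 and 35.9 at D28, and from 1.15 and 1.26 at SSCi D18 to between 36.1 and 50.3 at D32. No library of one day overlapped with those of another day of the same culture. Dll4 over Dll1 went from 0.556 and 0.639 to between 0.321 and 0.395 in RWB, from between 0.424 and 0.500 to between 0.211 and 0.229 in SSCd, and from 0.590 and 0.723 to between 0.160 and 0.236 in SSCi. Hes5 over Notch1 stood between 0.0937 and 0.328 in the 7 D18 libraries, and between 0.0116 and 0.0137 in SSCi D32. RWB D25 libraries, from 0.0591 to 0.179, overlapped with those of RWB D18, and SSCd D28 libraries, from 0.0330 to 0.0955, lay below those of SSCd D18, from 0.103 to 0.217.

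**Figure D3:**
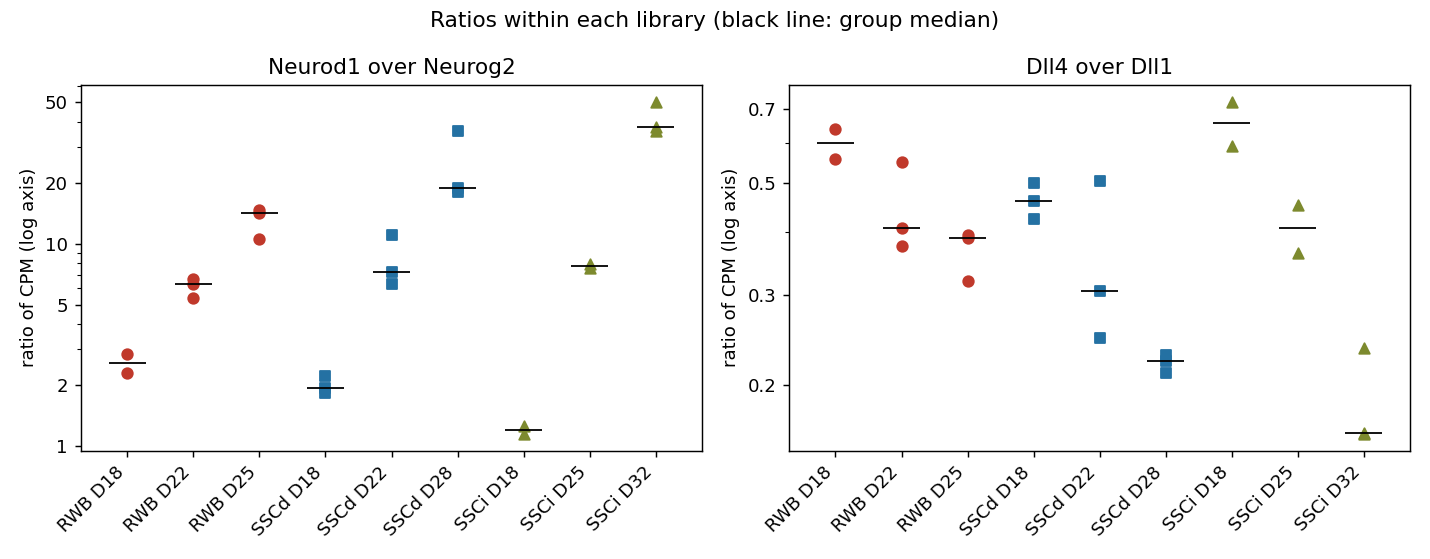
Ratio of Neurod1 to Neurog2 (left) and of Dll4 to Dll1 (right) within each library, on log axes, with 1 point per library and a black line at the group median. The medians of the left panel go from 2.57 to 14.1 in RWB and from 1.2 to 37.6 in SSCi, and those of the right panel from 0.598 to 0.389 in RWB and from 0.657 to 0.160 in SSCi.

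At D18 no difference between the 3 culture methods was called for these genes. RWB against SSCd gave log2 differences from -0.58 ± 0.42 (Dll1) to 0.68 ± 0.42 (Atoh7), and edgeR called 0 of 9 genes, against 0.488% of all genes. SSCd against SSCi ran from -0.35 ± 0.39 (Dll4) to 0.79 ± 0.32 (Neurod4), with 0 called against 3.86%. RWB against SSCi ran from -0.70 ± 0.24 (Neurog2) to 0.95 ± 0.34 (Neurod4), with 0 called against 5.23%. DESeq2 called 0 in each as well, and edgeR gave an unadjusted p under 0.05 for Neurog2 (0.028) in the first, for Neurod1 (0.039) and Neurod4 (0.022) in the second, and for Neurog2 (0.0093) and Neurod4 (0.012) in the third. For Hes5, the most variable gene, the standard errors of 0.61 to 0.67 leave a difference of 1 log2 unit within 2 standard errors of 0. The 2 SSCi D18 libraries include the mesenchyme-rich replicate 1. Without it, Dll1 moved from 0.105 to -0.32 in SSCd against SSCi. In RWB against SSCi, Hes5 then moved from 0.147 to -0.60 and Hes6 from 0.169 to -0.22.

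At D22, Atoh7 was higher in RWB than in SSCd and the other 8 genes were not called. Its group means were 34.6 ± 18.2 and 10.4 ± 3.56 CPM (SD, n = 3 each), its lowest RWB library (22.4 CPM) was above the highest SSCd library (12.5 CPM), and the log2 difference was 1.74 ± 0.41 (edgeR adjusted p = 0.029). That was 1 gene of 9 against 1.89% of all genes, 0.405% higher. The call was lost without RWB D22 replicate 2 (1.22, adjusted p = 0.23), without any 1 SSCd D22 library (adjusted p from 0.074 to 0.12), with no filter on low counts (adjusted p = 0.055), in a fit to both groups alone (adjusted p = 0.098), and without the 4 libraries richest in mitochondrial counts (2.08, adjusted p = 0.10). The other genes ranged from -0.73 ± 0.38 (Dll1) to 0.32 ± 0.28 (Neurod4). The change from D18 to D22 did not differ by call between these cultures: edgeR called 0 of 9 genes and 0% of all genes, 525 genes having an unadjusted p under 0.05 but no member, and DESeq2 called 12 genes and no member. For Atoh7 the difference in change was 1.05 ± 0.59 (edgeR adjusted p = 1).

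At D25, 7 of the 9 genes were lower in RWB than in SSCi, against 8.68% of all genes called and 5.08% called lower. RWB tissue at that day had been dissected and had been in serum medium since D18, while SSCi organoids were intact and without serum, so rotation, dissection and medium cannot be told apart. Hes5 differed by -2.58 ± 0.62 on the log2 scale, Notch1 by -1.75 ± 0.41, Dll4 by -1.73 ± 0.39, Neurog2 by -1.67 ± 0.22, Hes6 by -1.62 ± 0.27 and Dll1 by -1.55 ± 0.42, with edgeR adjusted p between 1.3e-04 and 0.027. Neurod1 differed by -0.95 ± 0.25 (edgeR adjusted p = 0.024). For all 7 the 3 RWB libraries lay below both SSCi libraries, as they did for Atoh7, which was not called (-1.30 ± 0.50, adjusted p = 0.11). How many of all genes tested were separated in this way was not counted. Neurod4 overlapped and measured -0.06 ± 0.31. Mitotic progenitor markers, summed, were also lower, at 331 to 507 CPM against 1167 to 1217 CPM, with 7 of 10 called lower, and their part in the result was not tested. Pigment epithelium markers summed to between 60.1 and 1083 CPM in RWB D25 and to 38.4 and 43.5 CPM in SSCi D25, with none of the 8 tested called.

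The D25 difference rests on 5 libraries and on a spread shared with the other groups. Without SSCi D25 replicate 2 only Neurog2 and Hes6 were called, without RWB D25 replicate 1 Dll1, Neurod1 and Hes5 lost their calls, without SSCi D25 replicate 1 Dll1 and Neurod1 did, and a fit to these 5 libraries alone called 0 of 9 (edgeR adjusted p from 0.051 to 0.16 for the 7). Without the 4 mitochondria-rich libraries 4 were called. The change from D18 to D25 was then compared between the cultures directly. All 9 differences were negative, from -2.72 ± 0.92 (Hes5) to -0.97 ± 0.33 (Neurog2), while the median over all genes tested was 0.08. Hes6 alone was called, at -1.79 ± 0.41 (edgeR adjusted p = 0.028), against 2.88% of all genes, 1.16% lower. Neurod1, at -1.33 ± 0.37, and Notch1, at -2.07 ± 0.62, had edgeR adjusted p of 0.058 and 0.072. The Hes6 call was lost without RWB D18 replicate 1 or 2, RWB D25 replicate 1, SSCi D18 replicate 1, or either SSCi D25 library (adjusted p from 0.050 to 0.20), or without the 4 mitochondria-rich libraries (adjusted p = 0.060), a refit in which Notch1 was called (-1.69, adjusted p = 0.027). Notch1 was also called without RWB D25 replicate 2, and Notch1, Neurod1 and Hes5 were called without SSCi D18 replicate 2 and with DESeq2, the members called then numbering 2, 5 and 4. The replicate block called 4 as well, Notch1 and Neurod1 among them.

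**Figure D4:**
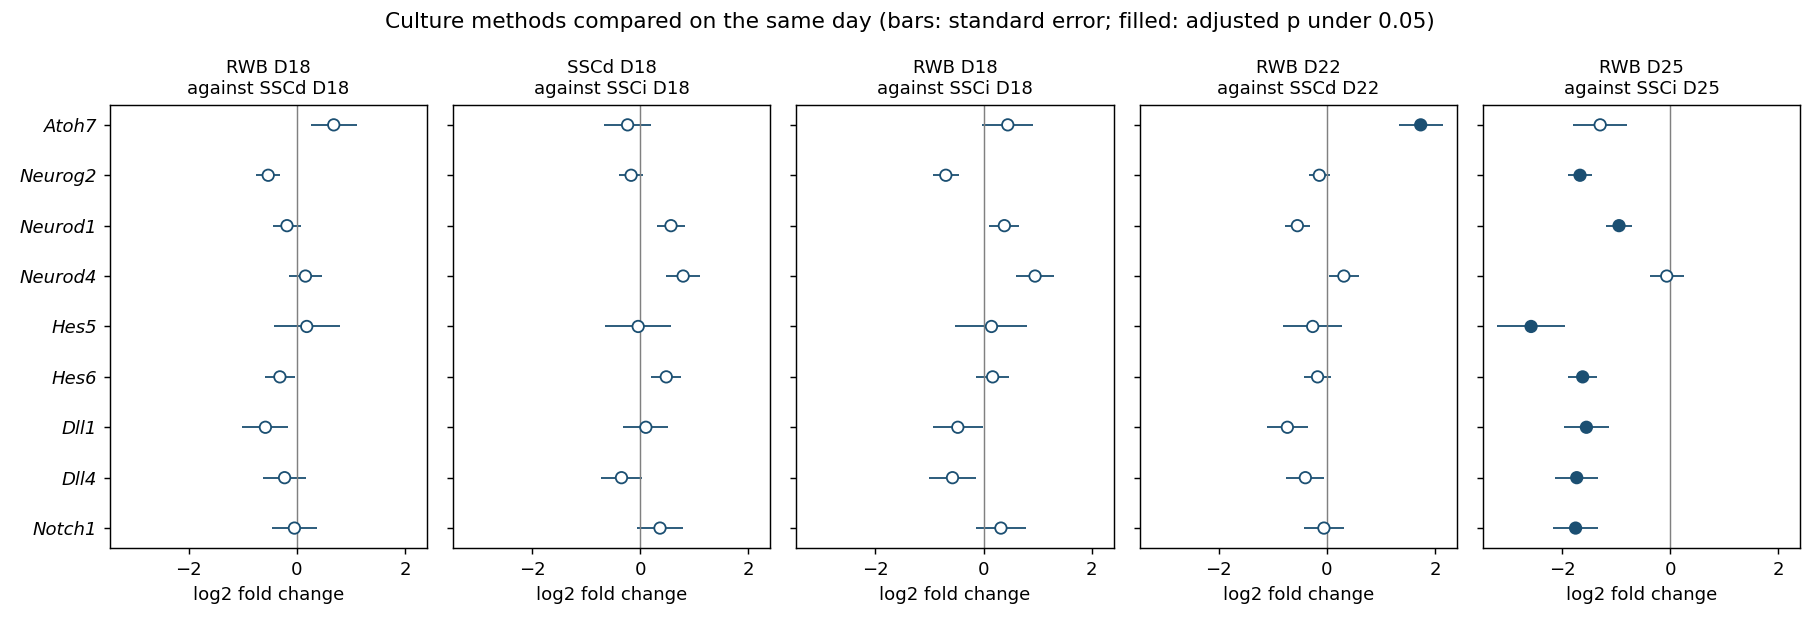
Log2 difference of each gene between culture methods on the same day, in 5 panels with 1 scale, with bars for the standard error and filled points for an edgeR adjusted p under 0.05. The D18 panels have no filled point, the D22 panel has Atoh7 at 1.74, and the D25 panel has 7 filled points between -2.58 and -0.95.

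Levels can be compared between genes only per length, for which the deposited transcript estimates were divided by transcript length. In group means of CPM of the main transcript per kb of its length, Atoh7 led at RWB D18 with 315. Hes6 (234), Neurod4 (172), Neurod1 (112), Hes5 (60.4), Neurog2 (48.4), Notch1 (31.0), Dll1 (18.7) and Dll4 (11) followed. At RWB D25 the order of means was Neurod4 (153), Neurod1 (122), Hes6 (50.8), Neurog2 (10.2), Notch1 (7.98), Hes5 (6.62), Dll1 (4.69), Dll4 (1.77) and Atoh7 (1.33). Libraries of some neighbours in this order overlapped, such as Neurod4 (114 to 198) with Neurod1 (103 to 145) and Notch1 (2.17 to 11.3) with Hes5 (3.70 to 10.4). By group mean Atoh7 thus went from first to last in RWB. At RWB D25 its libraries (0.570 to 2.595) overlapped with those of Dll4 (0.774 to 2.592). At SSCd D18 Hes6 had the highest mean (297 against 198 for Atoh7), and its libraries (244.3 to 323.5) overlapped with those of Atoh7 (157 to 253). At SSCi D18 the libraries of Atoh7 (150 to 316) and Hes6 (152 to 275) overlapped too. At SSCi D32 the leaders were Neurod1 (249) and Neurod4 (115). Atoh7 (0.387) again had the lowest mean, and its libraries (0.172 to 0.594) overlapped with those of Hes5 (0.361 to 1.74). For 7 of the genes 1 protein-coding transcript held at least 98% of the estimated counts, and the exceptions were Hes6 and Dll1. Transcripts with a retained intron held 11.4% of the Hes6 counts (1 transcript), and 7.49% and 5.19% of the Dll1 counts (2 transcripts).

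For each gene the 3 genes with the most similar pattern were found by the Pearson correlation of log2 CPM over the 9 group means, among 10864 genes. These are descriptions over groups that share days. Atoh7 was most like Nedd1 (0.997), Rad54b (0.997) and Smc4 (0.997), genes of spindle assembly, recombination and chromosome condensation. Neurog2 was closest to Idh2 (0.998), Olig2 (0.996) and Neil3 (0.994), and Dll4 to Olig2 (0.997), Idh2 (0.996) and Foxn4 (0.994), so they shared 2 of 3 names. Neurog2 and Dll4 themselves had a correlation of 0.996 over group means, but 0.089 once group means were taken out. Hes6 was closest to Shf (0.995), Hyal2 (0.986) and Nrarp (0.986), the last a feedback inhibitor of Notch, and Hes5 to Fam89b, Grk6 and Shf (0.981 each). Dll1 was closest to Xkr7 (0.989), Rbm38 (0.983) and Gramd1a (0.983), and Notch1 to Mbtd1 (0.984), E2f1 (0.972) and Chst3 (0.971). Neurod1 went with Doc2b (0.972), Lingo3 (0.961) and Kyat1 (0.960), and Neurod4 with Mcrs1 (0.980), Nudt16l1 (0.970) and Pkig (0.968). Between replicates of a group, Dll1, Dll4 and Notch1 deviated together, with correlations of 0.857 (Dll1 and Dll4), 0.838 (Dll4 and Notch1) and 0.815 (Dll1 and Notch1). In each of the 4 mitochondria-rich libraries Dll4 and Notch1 were the lowest of their group, and so was Dll1 except in SSCd D22. All of these genes were also lower in the mesenchyme-rich SSCi D18 replicate 1 than in replicate 2. The part of these libraries in the correlations was not tested.

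The counts of falls in the gene lists that follow stand beside 14%, 17.1% and 20.5% of all genes called lower from first to last day in RWB, SSCd and SSCi. Of 14 other proneural and neuronal bHLH factors tested, 8 fell and none rose from RWB D18 to D25, 10 fell and 1 rose from SSCd D18 to D28, and 7 fell and 1 rose from SSCi D18 to D32, with medians of -1.74, -2.09 and -0.65. Ptf1a, which specifies amacrine and horizontal cells, had log2 fold changes of -4.09, -6.14 and -8.14 in that order (edgeR adjusted p = 1.0e-05, 1.2e-07 and 6.4e-08), Olig2 had -2.53, -2.96 and -3.83, and Nhlh1 had -4.41, -3.12 and -2.93. The gene that rose in SSCd and SSCi was Bhlhe23, at 4.60 and 4.12. In RWB against SSCi at D25, 7 of the 14 were lower, against 5.08% of all genes, among them Ptf1a at -3.06 (edgeR adjusted p = 0.0017).

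Among 11 repressors tested, other Hes, Hey and Id genes and the Notch feedback inhibitor Nrarp, 6 fell in RWB, 7 in SSCd and 7 in SSCi over the same spans, with medians of -0.70, -1.55 and -1.97. Nrarp had log2 fold changes of -2.35, -2.53 and -2.06 (edgeR adjusted p = 3.0e-07, 3.1e-08 and 5.4e-07) and Hes2 of -3.09, -4.67 and -5.24. Hes1, the main Notch effector of progenitors, had -1.83, -1.76 and -1.97. Hey2, also a Notch target in other tissues, went the other way, at 1.75, 1.05 and 1.87 (edgeR adjusted p = 0.0011, 0.013 and 4.1e-04). It was the only gene of the list to rise in SSCd and SSCi, and Id4 rose as well in RWB, by 1.29.

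Of the 9 other Notch ligands and receptors, 3 fell in RWB, 3 in SSCd and 5 in SSCi, and none, 1 and 1 rose, with medians of -0.37, -0.10 and -1.26. In RWB and SSCd, 3 of 9 stands against 14% and 17.1% of all genes called lower, and 9 genes are few for such a share. Dll3, Notch2 and Notch3 fell in all 3 cultures, with log2 fold changes of -1.98, -2.76 and -2.91 for Dll3 and of -2.61, -2.28 and -2.83 for Notch3. Dner, a Delta-like protein of neurons, rose in SSCd (1.99) and SSCi (1.85). Jag1 (-1.45) and Dlk1 (-1.92) fell in SSCi. How far these falls, and the SSCi counts and medians of the gene lists, rest on the mesenchyme-rich SSCi D18 replicate 1 was not examined. Of the 24 genes for ligand and receptor processing and the nuclear complex, 9, 8 and 9 fell and 1 rose in each culture. Rbpj, the DNA-binding partner of Notch, had -1.30, -1.31 and -1.79 (edgeR adjusted p = 7.9e-06, 1.7e-06 and 1.2e-07), and Mfng, a glycosyltransferase that modifies Notch, had -2.18, -1.57 and -1.66. The gene that rose was Neurl1a, a ubiquitin ligase of the Neuralized family, at 1.94, 1.45 and 1.93. The median of this list was between -0.41 and -0.29, nearer to that of all genes than those of the 9 genes described above.

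Of 12 retinal progenitor factors, 10, 11 and 9 fell in the 3 cultures and none rose, with medians of -2.15, -1.92 and -2.02. This list shares members, among them Ccnd1 and Fgf15, with the mitotic progenitor markers. Ccnd1, a G1 cyclin, had -4.02, -3.45 and -3.62, and Fgf15 had -5.98, -6.98 and -7.89. Among 15 neurogenic transition genes, 6, 7 and 7 fell and 1, 1 and 2 rose. Sox11, which is high in new neurons, had -3.05, -2.79 and -3.39. Myt1l, a neuronal zinc finger factor, rose in all 3 cultures (1.62, 1.49 and 1.92), and Insm1 (0.78) rose in SSCi. Bhlhe23, Hey2, Id4, Dner, Jag1, Dlk1, Neurl1a, Myt1l and Insm1 were named after their values were seen.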

How the data were processed

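Polyadenylated RNA was sequenced from stranded, paired-end libraries, per the labels' protocols, and the 24 libraries were grouped by the culture and day in their titles. The series' design text calls repeats biological replicates. Per the submitters' processing notes, the tools were limma 3.32.2, edgeR 3.13.9 and kallisto 0.42.5, on build GRCm38.p5. The authors deposited estimated counts per gene and per transcript, not normalized. Library totals agree between both tables, but the gene values are not the sums of the transcript values (for Notch1 the ratio ran from 0.895 to 2.05, for Hes5 from 0.953 to 2.53, and for the other 7 genes from 0.874 to 1.40), and how they were combined is not given in the sources used here.

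Estimated gene counts were rounded, filtered with filterByExpr and scaled by TMM. A robust quasi-likelihood fit of 9 group means in edgeR 4.0.16 (R 4.3.3) over all libraries gave 16 comparisons, with Benjamini-Hochberg adjustment over 16792 genes and a threshold of 0.05. "Called" means past that threshold, and "rose" and "fell" in a count mean called. CPM are TMM-scaled, except that the values per kb use unscaled library totals. Each standard error (SE) is the size of the log2 fold change divided by the square root of its F statistic. The median biological coefficient of variation was 0.256. The test was also run on counts simulated from its own fit, and no result here rests on that run. Libraries of a group varied at least 10.3 times more than counting error, and each was counted as its own sample. Symbols were found for 33331 gene IDs.

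Same-numbered libraries deviated together (at least 3 pairs, each correlation over 0.1) for RWB D22 and D25 (0.202 to 0.493), SSCd D18 and D22 (0.123 to 0.410), SSCd D22 and D28 (0.197 to 0.401), and RWB D22 and SSCd D22 (0.203 to 0.431). No label says what a number shares, so this rests on the data. Alternatives were relative log expression scaling, no filter, the replicate block, 2-group fits, DESeq2 1.42.0, leaving out single libraries or the 4 richest in mitochondrial counts, and, added after the data were seen, gene counts summed from transcripts. The members and gene lists were chosen with earlier results of these data known. Named genes are the 9 members, the 3 most similar genes of each among genes whose mean log2 CPM was 3 or more, and up to 4 called genes of each list with the smallest p, other than those said to be chosen after their values were seen. Some genes that this rule would name are not reported here.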

Additional observations from a re-analysis of the deposited data

Results flagged for a closer look

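The change from D18 to D25 differed between RWB and SSCi for Hes6, by -1.79 ± 0.41 on the log2 scale (edgeR adjusted p = 0.028 for the interaction). Hes6 changed by -2.22 in RWB and by -0.44 in SSCi over these days, and with 1 library left out the SSCi value ran from -0.802 to 0.151. The call was lost without any 1 of 6 of the libraries compared. It is listed because a test of the difference itself passed the threshold. The fit pools the spread over all groups, and only 2 libraries stand behind RWB D18, SSCi D18 and SSCi D25. No group has over 3 libraries, which leaves little to tell a single outlying library from spread within a group.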

How the results depend on the processing

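Of 144 values (9 genes in 16 comparisons) 60 were called, and 40 of these were called in every refit. None of the 60 changed direction. Of the 84 not called, 24 changed sign in some refit. Some of these are the D18 values given above without SSCi D18 replicate 1. Among the others the text names, Neurod4 over RWB D18 to D25 ran from -0.281 to 0.084 when 1 library was left out, the highest without RWB D25 replicate 3. Over SSCi D18 to D25, Notch1 measured 0.14 from summed transcript counts and ran from -0.414 to 0.32 with 1 library left out, positive without SSCi D18 replicate 2 or SSCi D25 replicate 1, and Hes5 ran from -1.304 to 1.24, positive without the same libraries, while Hes6 ran from -0.802 to 0.151, positive without SSCi D18 replicate 2. Dll4 in SSCd against SSCi at D18 ran from -0.667 to 0.11, positive without SSCi D18 replicate 2. Neurod4 in RWB against SSCi at D25 measured 0.059 with the replicate block and ran from -0.32 to 0.20 with 1 library left out, positive without RWB D25 replicate 3 or SSCi D25 replicate 1. For these the cause was not tested. The number of members called moved as follows. RWB against SSCd at D22 went from 1 to 0 with no filter, without the 4 mitochondria-rich libraries and in a 2-group fit. RWB against SSCi at D25 went from 7 to 4 without those 4 libraries and to 0 in a 2-group fit, which has fewer libraries. The RWB and SSCi interaction went from 1 to 4 with the replicate block and to 4 with DESeq2. Leaving out 1 library gave 1 to 2 for RWB D18 to D22, 3 to 7 for RWB D22 to D25, 5 to 8 for SSCd D22 to D28, 0 to 1 for RWB against SSCd at D22, 2 to 8 at D25 between RWB and SSCi, and 0 to 5 for the RWB and SSCi interaction. In the comparisons whose same-numbered libraries deviated together, the block also added Dll4 in SSCd from D18 to D22 (-0.92, edgeR adjusted p = 0.029). There it changed no other call beyond those given for RWB D22 to D25. Summed transcript counts moved no number of members called by over 1.5 times. Counts of all genes called moved more. Leaving out 1 library gave, among others, 365 to 1624 for RWB D18 to D22 (1829 with all libraries), 481 to 910 for SSCi D25 to D32 (1386), 251 to 2073 at D25 between RWB and SSCi (1458) and 32 to 1378 for the RWB and SSCi interaction (484). In 2-group fits they went from 873 to 164 for RWB D22 to D25, from 4855 to 2488 for RWB D18 to D25, from 1351 to 761 for SSCd D22 to D28, from 3331 to 1124 for SSCi D18 to D25, from 1386 to 3784 for SSCi D25 to D32, from 82, 649 and 878 to 0 for the D18 comparisons, from 318 to 125 for RWB against SSCd at D22 and from 1458 to 90 for RWB against SSCi at D25. DESeq2 called 1405 for RWB D22 to D25, 258 and 1376 for RWB against SSCd and SSCi at D18, 669 at D22, 2409 at D25, and 1208 in place of 484 for the RWB and SSCi interaction. The block called 136, 3348 and 995 for RWB against SSCd at D18, RWB against SSCi at D25 and that interaction. Without the 4 mitochondria-rich libraries 563 were called for RWB D22 to D25, 101 for RWB against SSCd at D22, 28 for SSCd against SSCi at D18, 886 at D25 between RWB and SSCi and 274 for that interaction, for which no filter gave 272. Values near the floor, such as Atoh7 after D25 with 5 to 19 counts in SSCd D28 and SSCi D32, are limited by depth.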
